A study of Mus musculus with 8 samples.

Results

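Peroxisomes carry out the shortening of fatty acids that mitochondria handle poorly, such as very long, branched and dicarboxylic chains, and they complete the side chains of bile acids. Here, 33 mouse genes of peroxisomal oxidation and peroxisome assembly were examined in liver RNA sequencing data. They were found by gene symbol, and all 33 were present among the 27179 genes of the deposited table. Of these, 20 encode oxidation enzymes, acyl-CoA transporters and their matrix partners, and 13 are *Pex* genes, whose products (peroxins) build the organelle. The study compared livers of wild-type mice with livers of homozygous V227A mice, in which alanine replaces valine in the nuclear receptor PPARɑ, to learn how the variant alters hepatic gene expression. There were 4 livers per genotype. All mice were adult males of the C57BL/6NHsd strain, bred from heterozygotes and killed after 6 h without food. The germline substitution was made by base editing in zygotes, and the line comes from a single heterozygous founder that was backcrossed to this strain.

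The values are the authors' average log2 CPM (reads of a gene scaled to a fixed library size), 1 value per gene over the 8 libraries of both genotypes. Genotype differences are held in the table only as the authors' own fold changes and p-values, which were not used here. Levels in single livers were not analysed here. Each level below therefore mixes wild-type and V227A livers, has no spread between mice, and comes with no test, so it was not tested whether genes next to each other in the order of levels differ beyond replicate error. The data were collected from bulk liver, in which fewer cells of a type and less RNA per cell cannot be told apart.

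In the liver, PPARɑ is known as a regulator of fatty acid oxidation, and its agonists enlarge the peroxisome compartment of rodent hepatocytes. Peroxisomal beta-oxidation runs through an acyl-CoA oxidase that passes electrons to oxygen and releases hydrogen peroxide, a bifunctional hydratase and dehydrogenase, and a thiolase. Peroxins import folded matrix enzymes from the cytosol, insert membrane proteins, and divide the organelle.

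Oxidation genes were expressed well above the biogenesis genes. Together the 20 oxidation and transport genes took 1.15% of all CPM, and the 13 *Pex* genes took 0.0831%, a 13.8-fold difference in reads. The 4 genes with the most reads, *Cat*, *Phyh*, *Scp2* and *Acaa1b*, held 67.4% of the reads of the oxidation set, and each of the 4 had more reads than the 13 *Pex* genes combined. The *Pex* sum was 833 CPM, and the least of these 4 genes, *Acaa1b*, had 1207 CPM.

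Because long transcripts collect more reads, levels of different genes were compared per kilobase of the median protein-coding transcript. On that scale, as log2 CPM per kilobase, the oxidation genes had a median level of 7.20 and ranged from -3.04 to 11.04. The *Pex* genes had a median level of 4.48 and ranged from 1.23 to 6.31. The difference between the medians was 2.72, and the median of all genes with reads was 1.23. Of the 20 oxidation genes, 15 lay above *Pex16*, the highest *Pex* gene. The ranges overlapped, since *Acox3*, *Abcd2* and *Eci3* lay below the median *Pex* gene, and the latter 2 of them lay below every *Pex* gene. Among all genes with reads, 17 of the 20 oxidation genes and 1 of the 13 *Pex* genes were above the 90th percentile per kilobase. *Pex5* (89.7) and *Pex19* (89.4) lay just below that limit, and the median percentile was 96.4 for oxidation and 82.8 for *Pex* genes. By log2 CPM, 17 of the 20 and 5 of the 13 were above the 90th percentile.

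**Figure D1:**
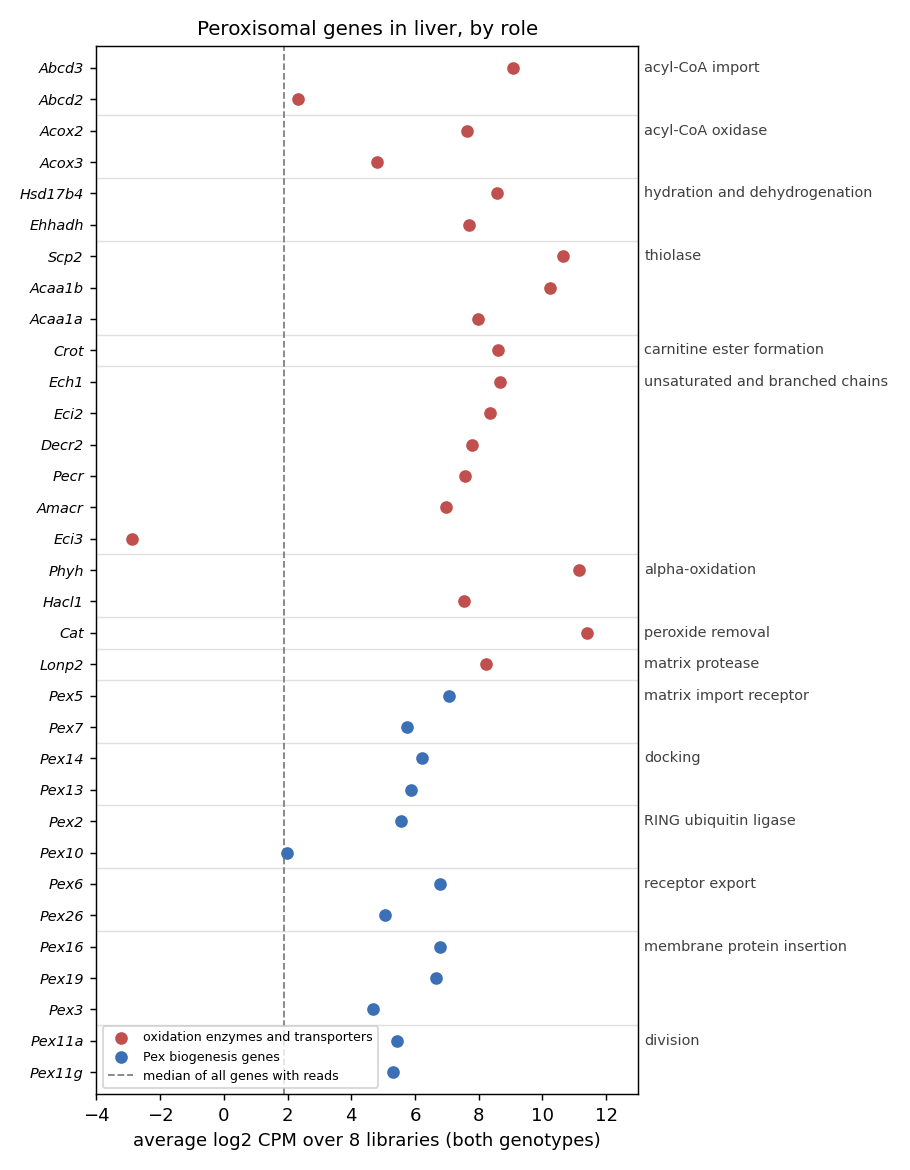
Average log2 CPM of each gene over 8 libraries of both genotypes (x axis), with genes grouped by role (y axis), oxidation and transport genes in red, *Pex* genes in blue, and the median of all genes with reads (1.89) as a dashed line. Each point is 1 average without an error bar. Most red points lie to the right of the blue ones, while *Abcd2* (2.31), *Pex10* (1.98) and *Eci3* (-2.87) stand apart from their sets.

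The first step is entry of acyl-CoA through ATP-binding cassette transporters of the D family. *Abcd3*, which encodes a peroxisomal membrane protein that imports branched-chain acyl-CoA and bile acid intermediates, had 545 CPM (log2 level per kilobase 7.36). *Abcd2*, which encodes a transporter of very long and polyunsaturated acyl-CoA, had 4.97 CPM and -0.16 on the same per-kilobase scale. The level of *Abcd3* per kilobase was 183-fold that of *Abcd2* with the median protein-coding transcript. The size of this gap depended on the length, and over 4 choices (median or longest protein-coding transcript, merged exons, and the median of all transcripts) it lay between 23.4-fold and 183-fold.

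Oxidases start each round. *Acox2*, the oxidase for branched chains and bile acid intermediates, had 199.8 CPM, and *Acox3*, the pristanoyl-CoA oxidase, had 28.2 CPM. Per kilobase, *Acox2* was 8.58-fold above *Acox3*, the lowest value over the 4 choices of length, which reached 27.4-fold. In the next step, *Hsd17b4* encodes the bifunctional enzyme of branched-chain and bile acid substrates and had 382 CPM. *Ehhadh*, which encodes the other bifunctional enzyme, used for straight and dicarboxylic chains, had 207 CPM. Per kilobase *Hsd17b4* stood 2.05-fold above *Ehhadh*, and between 1.62-fold and 9.41-fold over the choices of length. Under each choice this gap was smaller than that between the oxidases and that between the transporters.

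The thiolases close the cycle and were among the most abundant transcripts. *Acaa1b* had 1207 CPM and *Acaa1a* had 249.7 CPM, and both encode straight-chain 3-ketoacyl-CoA thiolases. Per kilobase the log2 level was 9.48 for *Acaa1b* and 7.97 for *Acaa1a*, a 2.85-fold difference that rose to as much as 10.9-fold with merged exons. Both genes lie on chromosome 9 of GRCm38, *Acaa1b* from 119148043 to 119157093 and *Acaa1a* from 119341028 to 119350296, and their sequences are alike. Of the 50-base stretches in *Acaa1b* transcripts, 30.5% also occur in *Acaa1a* transcripts, and 12.4% of those of *Acaa1a* occur in *Acaa1b*. How the counting treated reads that fit both genes is not given in the sources used here, so the value of either gene alone is uncertain. *Scp2* had 1607 CPM. It encodes both a long thiolase for branched chains and a short lipid-transfer protein made from an inner start, and the table does not separate them, so its level is not that of a thiolase alone. Its order against *Acaa1b* turned with the gene length: *Scp2* was higher by 1.56 (log2 per kilobase) with the median transcript but lower with the longest transcript (-0.23) and with merged exons (-0.41).

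Chains that carry double bonds or methyl branches need auxiliary enzymes. Of 6 genes grouped here under unsaturated and branched chains, 5 were abundant, and the part of each in oxidation was not tested. *Ech1*, a dienoyl-CoA isomerase, had 407 CPM, *Eci2*, an enoyl-CoA isomerase, had 324 CPM, and *Decr2*, the dienoyl-CoA reductase, had 220.5 CPM. *Pecr*, an enoyl-CoA reductase, had 189 CPM, and *Amacr*, the racemase that turns branched chains into the form the oxidases accept, had 126 CPM. By reads *Decr2* exceeded *Pecr* (log2 difference 0.22), whereas per kilobase it was lower (-0.72).

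*Eci3*, a close relative of *Eci2*, was nearly silent. Its log2 CPM of -2.87 is close to the value of a gene without reads (-3.78) and corresponds to an estimated 1.76 reads per library, against 8901 for *Eci2*. The 2 genes lie close together on chromosome 13, *Eci3* from 34946614 to 34963988 and *Eci2* from 34977748 to 35027115. They share 8.70% of the 50-base stretches of *Eci3*, and 2.12% of those of *Eci2*. With so few reads no fold between them is given, and the level of *Eci3* is set largely by the prior count that the authors' tool adds.

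Alpha-oxidation removes 1 carbon from phytanic acid, whose methyl branch blocks beta-oxidation. *Phyh*, which encodes the hydroxylase of its first step, had 2272 CPM. *Hacl1*, the lyase of the following step, had 186 CPM. Per kilobase *Phyh* was 13.9-fold above *Hacl1*, and up to 31.9-fold with merged exons.

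The remaining genes serve the matrix as a whole. *Cat*, which encodes the catalase that destroys hydrogen peroxide, was the gene with the most reads of the 33, with 2692 CPM, or 23.3% of the reads of the oxidation set. *Crot*, which makes carnitine esters of shortened chains for export, had 393 CPM. *Lonp2*, a protease and chaperone of the matrix, had 299 CPM. Their log2 levels per kilobase were 10.63, 7.04 and 7.25, in that order, all above the highest *Pex* gene with the median transcript.

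Among the *Pex* genes, levels lay closer together, from *Pex10* at 3.95 CPM to *Pex5* at 133 CPM. *Pex5* encodes the receptor for most matrix proteins, which end in a C-terminal signal. *Pex7* encodes the receptor for a smaller group with an N-terminal signal, which includes the Acaa1 thiolases and phytanoyl-CoA hydroxylase, and had 53.3 CPM. The log2 level of *Pex5* was 5.43 per kilobase and that of *Pex7* was 3.54, a 3.71-fold difference that lay between 2.10-fold and 7.66-fold over the choices of length. *Phyh*, which encodes a cargo of Pex7, had a level of 10.63 on the same log2 scale per kilobase.

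Receptors dock at a membrane complex of Pex13 and Pex14. *Pex14* had 75.2 CPM and *Pex13* had 58.7 CPM. Which of them was higher per kilobase depended on the length, since *Pex14* exceeded *Pex13* by 1.40 (log2) with median and with longest protein-coding transcripts and was below it with merged exons (-0.076) and with the median of all transcripts (-0.69). *Pex2* and *Pex10* encode RING-finger ubiquitin ligases that mark the receptor for recycling. *Pex2* had 47.4 CPM, and per kilobase it was 11.5-fold above *Pex10*, the lowest *Pex* gene, and between 4.44-fold and 17.5-fold over the choices of length. *Pex10* sat at the 49.9th percentile of all genes with reads per kilobase, with an estimated 106 reads per library.

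*Pex6* encodes an ATPase that pulls the marked receptor out of the membrane, and *Pex26* encodes its membrane anchor. *Pex6* had 110.0 CPM and *Pex26* had 33.1 CPM, a 3.97-fold difference per kilobase. Membrane proteins are inserted by a separate route, with Pex19 as the chaperone in the cytosol, Pex3 as its docking site and Pex16 as the helper that places Pex3. *Pex16* had 110.2 CPM, *Pex19* had 100.4 CPM and *Pex3* had 25.4 CPM. *Pex19* was 2.77-fold above *Pex3* per kilobase, and up to 7.28-fold with the median of all transcripts. *Pex16* was 1.88-fold above *Pex19* per kilobase, but below it with the median of all transcripts (-0.30 on the log2 scale).

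The Pex11 proteins elongate and divide peroxisomes, and *Pex11a* is the member of the family known to respond to PPARɑ agonists. *Pex11a* had 43.1 CPM and *Pex11g* had 39.4 CPM. Their log2 levels per kilobase were 4.26 and 4.48, and their order turned with the longest transcript (*Pex11g* minus *Pex11a* -0.49), with merged exons (-0.22) and by reads alone (-0.13). In the order of *Pex* genes per kilobase with the median transcript they took ranks 8 and 7 of 13.

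**Figure D2:**
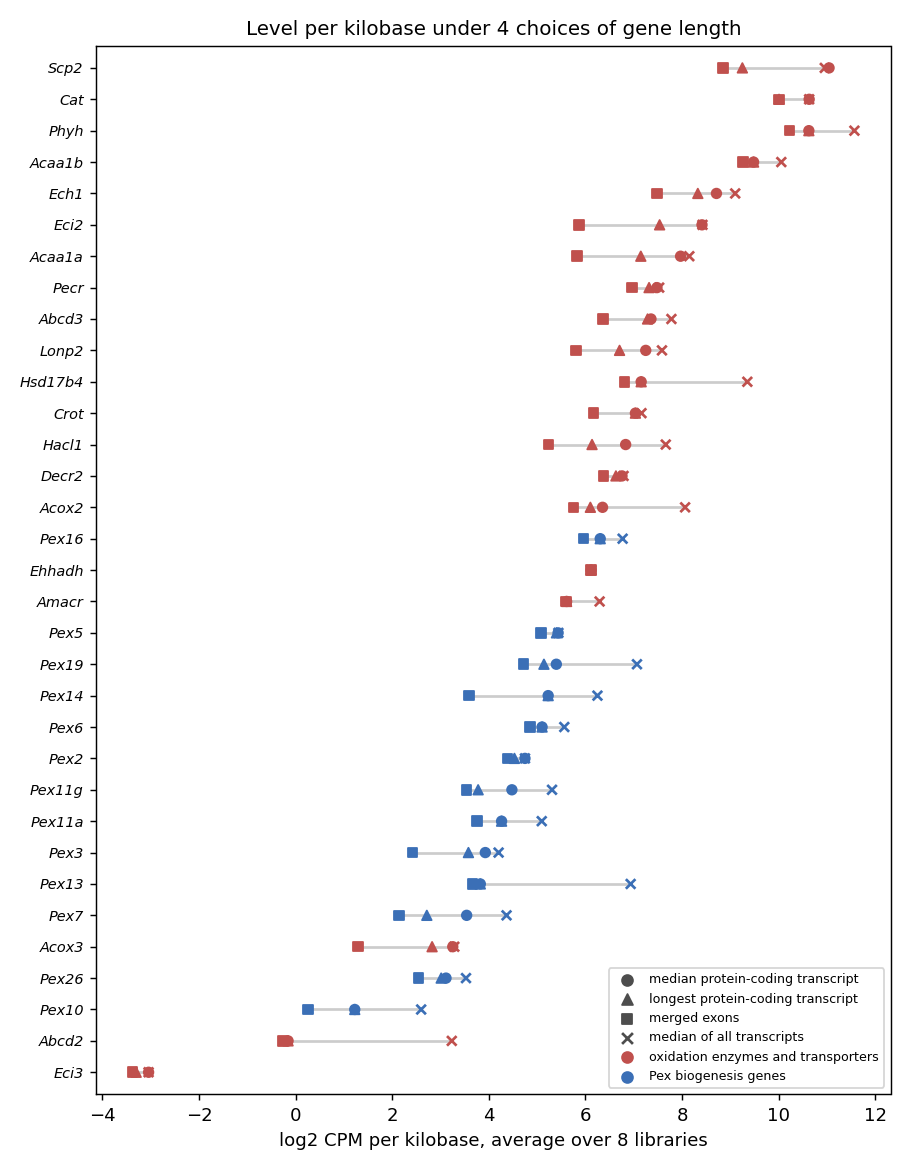
Level of each gene as log2 CPM per kilobase (x axis), ordered by the level with the median protein-coding transcript (y axis), in red for oxidation and transport genes and blue for *Pex* genes. Symbols stand for 4 choices of gene length and the grey line joins them, so it shows the effect of length and no replicate error. The line is longest for *Abcd2* and *Pex13* and short for *Pex5* and *Ehhadh*, while *Eci3* stays lowest under each choice.

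The contrast between the sets kept its direction under each other choice of length. The difference between the medians was 2.83 with the longest transcript, 2.48 with merged exons and 2.41 with the median of all transcripts, and it was 2.36 by reads alone. Between 11 and 16 oxidation genes lay above the highest *Pex* gene under these choices. Reads can also be shared where genes overlap. Exons of 14 of the 33 genes overlap exons of another annotated gene, and for 5 genes the overlap covers at least 10% of exon bases. These are *Pex11g* (41.1%), *Hacl1* (31.1%), *Pex14* (28.3%), *Pecr* (11.5%) and *Acaa1b* (11.4%). The overlap is on the same strand for *Hacl1* and on the opposite strand for the other 4. The libraries were stranded, but the strand setting of the counting is not given in the sources used here, so reads from overlapping genes could not be told apart. *Dlec1*, the gene that overlaps *Acaa1b*, had a log2 CPM of -1.22, against 10.24 for *Acaa1b*. The genes behind the other 4 of these overlaps were not matched among the genes with reads.

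Promoter sequence, which did not enter the choice of genes, also differed between the sets. RefSeq promoter windows of GRCm38.p6, the C57BL/6J reference, from 250 bases before to 50 bases after a start site, were matched for 28 of the 33 genes by gene identifier. CpG dinucleotides are usually depleted from the mouse genome and are retained at promoters of many broadly expressed genes. The CpG ratio is the number of CpG dinucleotides divided by the number that the C and G content would give. The 11 *Pex* genes with a window had a median CpG ratio of 0.840, the 17 oxidation and transport genes had 0.515, and 13556 genes with reads and a window had 0.693. Of the *Pex* genes, 8 of 11 were at or above that all-gene median, compared with 6 of 17 oxidation genes. The GC content was similar, with medians of 57.3% for *Pex* and 58.0% for oxidation genes. The ranges of the CpG ratio overlapped (0.523 to 0.965 for *Pex* genes and 0.127 to 1.04 for oxidation genes). Genes are not replicates and the sets were chosen by hand, so no test was made.

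The promoters of the 2 genes with the most reads in each set, among those with 1 start site in the table, show the contrast. Only the 250 bases before the start are printed, 5′ to 3′ on the strand of the gene, and capitals mark each CpG. *Cat* (chr2:103485154-103485403, minus strand) and *Phyh* (chr2:4918746-4918995, plus strand) represent the oxidation set. *Pex6* (chr17:46711226-46711475, plus strand) and *Pex14* (chr4:149099844-149100093, minus strand) represent the biogenesis set.
Cat: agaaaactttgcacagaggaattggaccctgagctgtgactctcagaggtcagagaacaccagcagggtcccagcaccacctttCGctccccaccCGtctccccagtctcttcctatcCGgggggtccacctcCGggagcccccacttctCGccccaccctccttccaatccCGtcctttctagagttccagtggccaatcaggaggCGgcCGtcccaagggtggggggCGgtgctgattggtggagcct
Phyh: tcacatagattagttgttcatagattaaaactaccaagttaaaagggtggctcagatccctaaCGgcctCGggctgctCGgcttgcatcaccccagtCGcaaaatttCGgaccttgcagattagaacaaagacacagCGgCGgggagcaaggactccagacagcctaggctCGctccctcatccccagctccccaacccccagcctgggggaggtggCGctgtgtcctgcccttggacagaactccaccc
Pex6: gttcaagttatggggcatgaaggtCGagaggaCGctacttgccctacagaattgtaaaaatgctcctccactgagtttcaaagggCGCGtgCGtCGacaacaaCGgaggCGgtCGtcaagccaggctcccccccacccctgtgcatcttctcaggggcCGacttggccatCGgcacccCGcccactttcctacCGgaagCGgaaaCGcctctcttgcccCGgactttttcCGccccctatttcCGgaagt
Pex14: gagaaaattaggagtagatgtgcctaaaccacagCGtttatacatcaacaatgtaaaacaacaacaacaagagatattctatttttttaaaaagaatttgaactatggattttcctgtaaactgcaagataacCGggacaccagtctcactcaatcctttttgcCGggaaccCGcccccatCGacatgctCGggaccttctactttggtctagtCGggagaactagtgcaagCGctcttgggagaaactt

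The *Cat* and *Phyh* stretches hold 9 CpG dinucleotides each, against 18 in *Pex6*. The *Pex14* stretch holds 8, most of them toward its 3′ end, but its window has a GC content of 46.3%, and its ratio over the whole window was 0.870. The ratios of the other windows shown were 0.389 for *Cat*, 0.495 for *Phyh* and 0.846 for *Pex6*. *Acox2* had the lowest ratio of the 28 genes (0.127), and *Abcd3* had the highest (1.04). *Pex11a* (0.527) and *Pex26* (0.523) had the lowest ratios among the *Pex* genes.

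**Figure D3:**
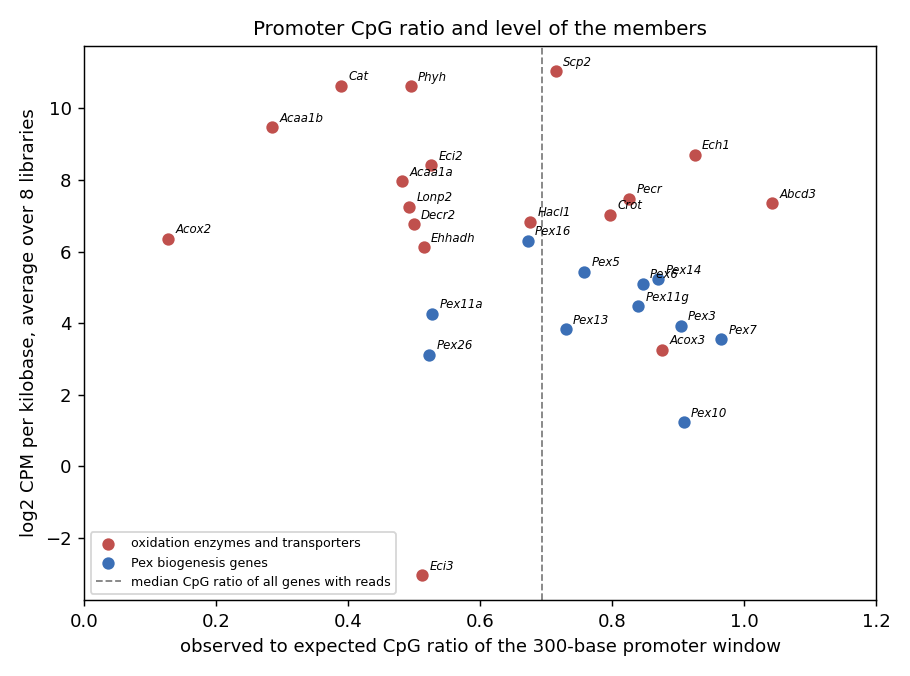
Observed to expected CpG ratio of the promoter window (x axis) and level as log2 CPM per kilobase averaged over 8 libraries (y axis) for 28 genes, red for oxidation and transport and blue for *Pex*. A gene with several start sites is placed at the median of their ratios, and the dashed line is the median ratio of all genes with reads (0.693). *Cat*, *Phyh* and *Acaa1b* combine high levels with ratios under 0.5, and most *Pex* genes lie to the right of the line at lower levels. *Scp2*, the highest point (11.04), also lies to the right of the line (0.714). So do *Ech1* (0.925), *Pecr* (0.826), *Abcd3* (1.04) and *Crot* (0.797), all above every *Pex* gene in level.

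PPARɑ binds DNA with its partner RXR at direct repeats of the half-site AGGTCA spaced by 1 base. This DR1 sequence, AGGTCANAGGTCA, was searched on both strands of the windows with up to 2 mismatches. It was matched in 2 of the 28 genes, while 3.86% of all 32851 promoter windows held a match. The second value is a share of windows, including those of genes without reads. It is not a share of genes, and some of the 28 genes have several windows. The matches are shown because they are the only ones among these genes, with capitals for bases that equal the motif, and both lie on the minus strand. The *Cat* match (chr2:103485345-103485357) has its first base at position -204 from the start site and lies inside the *Cat* sequence printed above. The *Acox2* match (chr14:8258818-8258830) lies just after one of its 2 start sites.
Cat: AGGTCAgAGaaCA
Acox2: AGGaCAgAGGTgA

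A match describes letters only, and binding was not measured in these data. Known response elements of peroxisomal genes often lie outside so short a window, which was not searched further.

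The liver holds many peroxisomal transcripts beside these. Of 34 other listed peroxisomal genes, 33 had reads, against 18937 of 27179 genes in all, and 13 reached 100 CPM. The share of all genes at 100 CPM was not computed, but *Pex19*, at 100.4 CPM, lay at the 93.5th percentile of genes with reads. By log2 CPM, without a correction for length, 16 of the 34 were at or above the 90th percentile of genes with reads. On that scale the counts were 17 of the 20 oxidation genes and 5 of the 13 *Pex* genes. Their median was 5.84 (log2 CPM), between the medians of the oxidation set (8.09) and the *Pex* set (5.73) on the same scale. The 3 *Pex* genes among them had log2 CPM values between 3.43 and 4.79.

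The sampled tissue carried hepatocyte markers at the top of the range, with log2 CPM of 12.09 to 16.09 for 4 of 4 genes. Markers of Kupffer, endothelial and stellate cells had reads for 9 of 9 genes with log2 CPM from 2.25 to 6.64, those of cholangiocytes from 0.65 to 2.30, and those of adipocytes and lymphocytes from -3.13 to -0.84. The part of these other cells in the levels given here was not tested. The depth of each library is unknown. From the level of genes without reads, the mean effective library size was estimated as 27473997 reads, so that every member but *Eci3* had an estimated 106 reads or more per library.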

How the data were processed

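RNA was sequenced from 4 wild-type and 4 V227A livers. Per the study's methods, stranded poly-A libraries were read as pairs, trimmed with Trimmomatic, checked with FastQC, aligned to GRCm38/mm10 with RNA STAR and counted per gene with featureCounts. The authors compared genotypes with edgeR. Versions, the annotation and filters are not given in the sources used here. The deposited table holds the authors' average log2 CPM over all libraries, fitted with a prior count that moves low genes towards a common floor. It also holds the authors' log2 fold change, F, p-value and FDR of the genotypes, which were not used. The planned tests between genotypes need values per library and were not run.

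Members, lists and the order of the report were chosen with earlier results of these data known. All members could be named, and values are given for each. Genes at the lowest log2 CPM (8242 of 27179) were taken as having no reads, which leaves 18937. The library size follows from that floor and an assumed prior count of 2, the default of the tool that the authors used. Of 2378 genes with 1 to 5 estimated reads in all, 99.9% were within 0.1 of a whole number. Lengths came from GENCODE vM21 (GRCm38), with a value for 91.0% of genes with reads, and gene positions and promoters from RefSeq. Exact 50-base stretches were compared between all annotated transcripts of the members. Python 3.11.15, pandas 2.3.3, numpy 2.4.6 and matplotlib 3.10.9 were used, and the computations were tested on simulated data.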

Additional observations from a re-analysis of the deposited data

How the results depend on the processing

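No paired analysis was possible because the values used are averages over all libraries. For the same reason, leaving out single livers, other normalizations, tests and pseudocounts were not run. The gene length was the choice that mattered. Merged exons, the median of all transcripts and the most CpG-rich start site were chosen after seeing the data. With no replicate spread, a value was taken as moved beyond 1.5 fold. The difference between the set medians and the count of oxidation genes above the highest *Pex* gene did not move by that much. Without *Eci3*, which has under 1 CPM, the difference between the medians was 2.77. The CpG difference was -0.32, and -0.32 with the most CpG-rich start. It is a difference of ratios and not of log2 values, so the 1.5-fold limit cannot judge it. The CpG alternative could change little, because most genes have a single start site and so the same ratio under both choices. Of 15 pairs of genes, 10 kept their direction under each alternative that gave a value and 5 did not. Of those 10, 9 moved beyond 1.5 fold under 1 or more alternatives, so that the direction held but the size did not, and only *Pex6* against *Pex26* stayed within it. The median levels of the sets moved too, with merged exons to 6.14 for the oxidation set and 3.66 for the *Pex* set, by reads alone to 8.09 and 5.73, and with the median of all transcripts to 5.31 for the *Pex* set. *Scp2* minus *Acaa1b* was -0.23 (longest transcript) and -0.41 (merged exons) on the log2 scale. *Pex11g* minus *Pex11a* was -0.49 (longest), -0.22 (merged exons) and -0.13 (reads alone). *Decr2* minus *Pecr* was 0.22 (reads alone), *Pex14* minus *Pex13* was -0.076 (merged exons) and -0.69 (all transcripts), and *Pex16* minus *Pex19* was -0.30 (all transcripts). The reads of each gene are the same under all of these alternatives, which change the length that divides them or leave it out. An average over both genotypes cannot show how far any of these genes varies between mice.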
